A study of Mus musculus with 9 samples.

Results

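Iron and haem handling in the mouse liver was followed through 10 genes: Hamp, Trf, Hpx, Cp, Slc40a1, Hmox1, Slc11a1, Tfrc, Ftl1 and Fth1. They were taken by symbol from a table of 53713 gene lines, and all 10 were found. Liver cells of C57BL/6J mice, 6 to 8 weeks old, were dissociated, treated with a red blood cell lysis buffer, loaded on microwell chips and counted by unique molecular identifier (UMI), which marks each captured RNA molecule. The 9 samples fall into 4 groups: wild-type mice after 0, 2 or 4 weeks of injections of CCl4 (carbon tetrachloride, a liver toxin that scars the organ), with 1 sample each, and CluKO mice given human recombinant clusterin during CCl4 injection, with 6 samples. The labels do not give the length of the CCl4 course in the CluKO mice, nor the part of Clu (clusterin, a secreted chaperone) that was deleted. The values below come from the matrix labelled CluKO, which pools the 6 samples of what the design text calls 3 mice, with no name in its barcodes to tell them apart. It is therefore 1 sample without replicates, and no test between conditions or across mice was possible. The 3 wild-type matrices were not analysed here, because no table pairs their lines with gene names.

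The matrix held 4694 cells and 28912707 UMIs. After cells with under 200 genes or over 20% mitochondrial UMIs were left out, 4616 remained, with a median of 4857 UMIs per cell. Each cell was placed in a class by its share of UMIs from marker genes, none of which is one of the 10 genes: 4113 cells fell into 18 classes, 326 passed more than 1 gate and were left out, and 177 passed none. Since the gates used these markers, their levels only describe the classes. In each class named next, every listed marker found in the gene table was higher than in the other classes, globin-rich cells left out. These were hepatocytes (14 of 14), Kupffer cells (8 of 8), Gpnmb Spp1 macrophages (7 of 7) and Cx3cr1 MHC class II macrophages (6 of 6). Mmp12 macrophages (3 of 3), erythroid precursors (14 of 14) and mesothelial cells (7 of 7) were the others. The erythroid markers counted here include the globin genes Hbb-bt and Hbb-bs, which the erythroid gate did not use. Hepatocytes had a median mitochondrial share of 0.0905% of UMIs, against 1.93% in Kupffer cells, and the part of this in the levels below was not tested. Clu itself was counted at 476 CPM (its share of all UMIs scaled to 1000000; exact Poisson 95% interval 468 to 484) over all cells and at 2115 CPM (2062 to 2169) in hepatocytes, and whether its captured 3′ end lies outside the deleted part is not given, so its level does not check the label. Every interval here reflects the error of counting molecules and leaves out variation from cell to cell and from mouse to mouse. Overlap of intervals, or its lack, therefore describes summed counts and is not a test between classes. Levels are CPM over the summed cells of a class and are compared between classes for 1 gene, never between genes, since they are not corrected for gene length.

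Iron reaches the plasma from macrophages that take up old red cells, split their haem with haem oxygenase and release the iron through ferroportin, the only known iron exporter of mammalian cells. Hepatocytes secrete transferrin, which carries the iron, ceruloplasmin, which oxidises it for loading, haemopexin, which binds free haem, and hepcidin, the hormone that closes ferroportin. Developing red cells take up transferrin iron through transferrin receptor 1, and ferritin, a shell of heavy and light chains, stores what is not used.

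Iron-responsive elements are RNA hairpins that tie this system together: the proteins that bind them when iron is short block translation from a hairpin in the 5′ UTR and protect the RNA from a set of hairpins in the 3′ UTR. They are shown because 4 of the 10 genes carry one, and RNA levels alone do not read their effect on translation. Each is printed 5′ to 3′ with the 6-base loop, CAGTGN, in capitals. The search asked for an unpaired c in front of 5 pairs below the loop, on the transcript strand, in annotated UTRs (GENCODE M21, GRCm38), and 153 of 21875 genes (0.699%) held a match, which is a match of letters only.
Fth1, 5′ UTR, chr19:9982733-9982759, plus strand: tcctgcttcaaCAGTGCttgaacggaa
Ftl1, 5′ UTR, chr7:45459780-45459806, minus strand: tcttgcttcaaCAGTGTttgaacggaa
Slc40a1, 5′ UTR, chr1:45925466-45925492, minus strand: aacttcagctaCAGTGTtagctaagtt
Tfrc, 3′ UTR, chr16:32631220-32631246, plus strand: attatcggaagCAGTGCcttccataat
Tfrc, 3′ UTR, chr16:32631599-32631625, plus strand: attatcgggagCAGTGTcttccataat
Tfrc, 3′ UTR, chr16:32631664-32631690, plus strand: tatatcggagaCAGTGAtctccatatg
Tfrc, 3′ UTR, chr16:32631711-32631737, plus strand: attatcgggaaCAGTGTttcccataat
Alas2, the erythroid first enzyme of haem synthesis and not one of the 10, is printed because it comes up beside Tfrc in red cell precursors. Its 5′ UTR match lies at chrX:150547459-150547485, plus strand: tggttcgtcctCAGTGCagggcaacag

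The 10 genes divided the liver by cell class. By summed CPM, Hamp, Trf, Hpx and Cp were highest in hepatocytes, and Slc40a1 and Slc11a1 in Kupffer cells. Hmox1 and Ftl1 were highest in Gpnmb Spp1 macrophages, Fth1 in Mmp12 macrophages, and Tfrc in erythroid precursors. Hepatocytes held 11.1% of the UMIs of all classes but 92.0% of those of Hamp, 79.1% of those of Hpx, 56.6% of those of Trf and 45.0% of those of Cp. Macrophages held 45.9% of all UMIs and 97.8% of those of Slc40a1, 96.8% of those of Hmox1 and 95.4% of those of Slc11a1. Erythroid precursors held 2.37% of all UMIs and 38.8% of those of Tfrc.

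**Figure D1:**
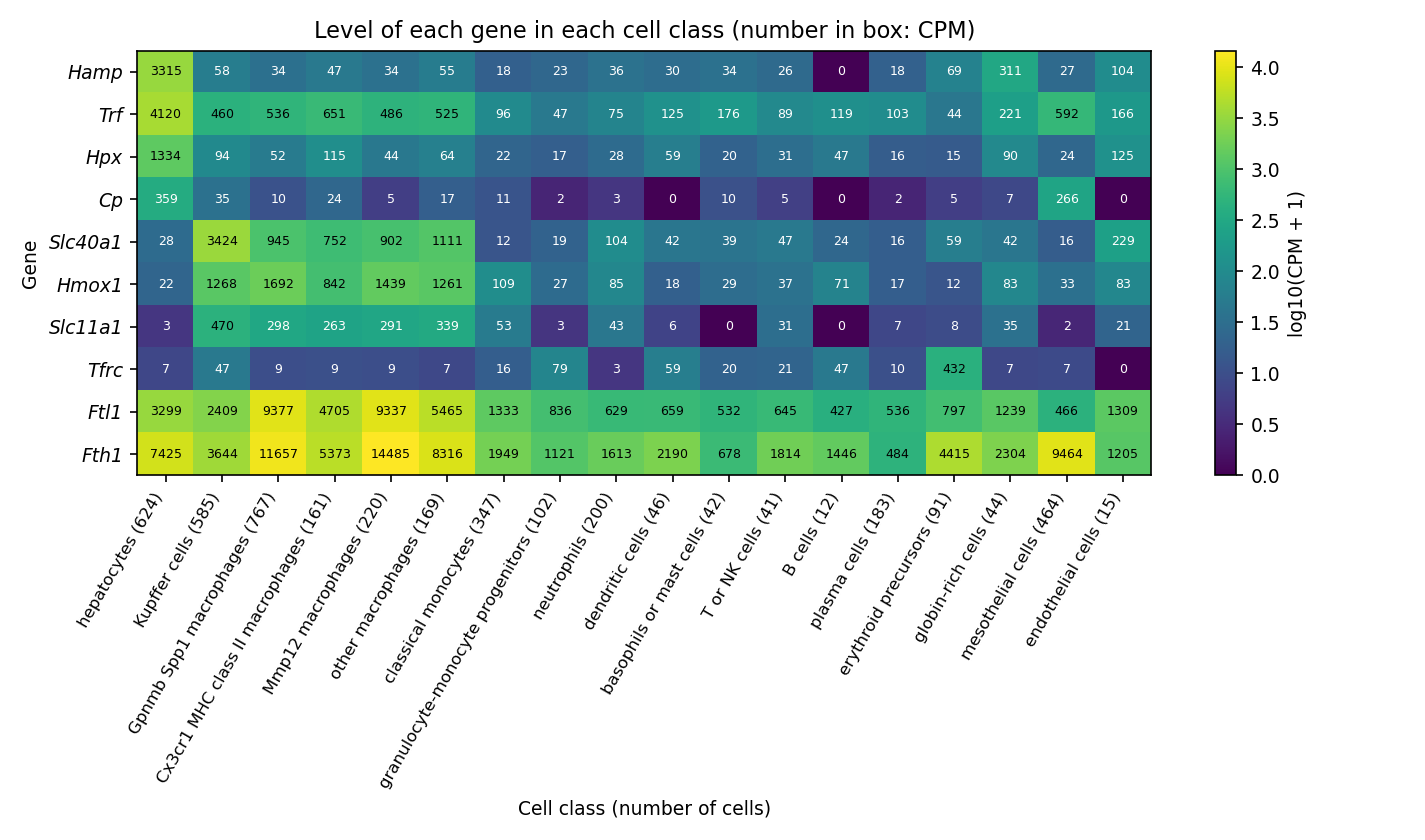
Level of the 10 genes (vertical axis) in the 18 cell classes (horizontal axis, number of cells in brackets); the box colour is log10(CPM + 1) and the number in each box is the CPM. The 4 plasma protein genes at the top are highest in hepatocytes, Slc40a1, Hmox1 and Slc11a1 across the 5 macrophage classes, and Tfrc in erythroid precursors; Ftl1 and Fth1 have UMIs in every class.

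Hepatocytes were compared with all other classes except the globin-rich cells that lacked precursor markers. A gene was called past 2-fold on the log2 ratio of CPM with 20 CPM added to each side, among genes with at least 30 UMIs. By this rule 7 of the 10 genes were called, 4 higher and 3 lower, beside 20.1% of the 13517 genes tested (8.49% higher, 11.6% lower). The median log2 ratio was -0.15 over the 10 genes and -0.13 over all genes tested.

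Hamp encodes hepcidin (ENSMUSG00000050440, chr7:30942368-30944032, minus strand). Its level was 3315 CPM (3249 to 3383) in hepatocytes, 57.6 CPM in Kupffer cells, 33.7 CPM in Gpnmb Spp1 macrophages and 17.9 CPM in monocytes. The hepatocyte level was 96.7-fold (89.9 to 104) that of the other cells. T or NK cells and neutrophils, used as background cells for the hepatocyte genes, had 34.2 CPM (24.0 to 47.4), which covers the Gpnmb Spp1 value and lies under the Kupffer value. Per Alb UMI there were 0.483 Hamp UMIs in hepatocytes, 0.0855 (0.0716 to 0.102) in Kupffer cells and 1.5 (0.924 to 2.47) in globin-rich cells. A Hamp UMI was seen in 86.4% of hepatocytes and in 12.0% of those background cells, at median depths of 3363 and 3596 UMIs per cell. With each cell thinned to 2000 UMIs these shares were 78.7% and 4.98%. The globin-rich cells stood next in order at 311 CPM (227 to 417), and from the erythroid precursors at 69.0 CPM downward the intervals of neighbouring classes overlapped. The Hamp2 copy had 20 UMIs in all, or 0.167% of the Hamp count. How reads that fit both copies were counted is not given, so their part in the Hamp level cannot be told.

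Hepcidin was uneven from one hepatocyte to the next. Thinned to equal depth, 21.3% of hepatocytes had no Hamp UMI, and the 62 cells with the most held 49.6% of its UMIs. Its level per cell had a median of 1500 CPM, a 25th percentile of 417 CPM, a 75th of 3640 CPM and a highest value of 39423 CPM. The variance of its thinned counts was 17.2 times their mean, against 7.14 times for Trf, 5.58 times for Fth1, 3.87 times for Hpx, 2.46 times for Cp and 2.38 times for Ftl1. This ratio grows with the mean count, and by other measures Cp was the more uneven: 67.5% of thinned hepatocytes had no Cp UMI, and the 62 cells with the most held 57.9% of its UMIs. These cells come from several mice that cannot be told apart, so spread between cells and spread between mice cannot be told apart.

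Trf, the plasma iron carrier transferrin (ENSMUSG00000032554, chr9:103204001-103230444, minus strand), was at 4120 CPM (4046 to 4195) in hepatocytes and was 10.4-fold (10.1 to 10.7) higher there than in other cells. A Trf UMI was seen in 97.3% of hepatocytes and in 20.3% of the T, NK cells and neutrophils, or 92.6% and 14.5% after thinning. Levels outside hepatocytes were not uniform. Mesothelial cells, the lining of the liver surface, had 592 CPM (569 to 617), and the 5 macrophage classes had 460 to 651 CPM, against 77.9 CPM (62.0 to 96.7) in the background cells. The number of Trf UMIs per Alb UMI was 0.600 (0.586 to 0.614) in hepatocytes, 0.682 (0.632 to 0.736) in Kupffer cells and 0.855 (0.605 to 1.21) in neutrophils, where it rests on 65 and 76 UMIs. It was 1.71 (1.61 to 1.81) in Gpnmb Spp1 macrophages, 2.31 in Mmp12 macrophages and 9.08 (7.98 to 10.4) in mesothelial cells. The part of free hepatocyte RNA in these levels was not tested.

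Hpx encodes haemopexin (ENSMUSG00000030895, chr7:105591613-105600137, minus strand), which carries free haem back to the liver. It stood at 1334 CPM (1292 to 1377) in hepatocytes, 115 CPM in Cx3cr1 MHC class II macrophages, 93.8 CPM in Kupffer cells and 28.5 CPM (19.2 to 40.7) in the background cells. The hepatocyte level was 30.4-fold (28.4 to 32.6) higher than in other cells. Kupffer cells had 0.139 Hpx UMIs per Alb UMI, hepatocytes 0.194 and neutrophils 0.316 (0.191 to 0.505).

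Cp encodes ceruloplasmin, the copper ferroxidase of plasma (ENSMUSG00000003617, chr3:19957054-20009145, plus strand). It had 2 classes well above the rest, hepatocytes at 359 CPM (338 to 382) and mesothelial cells at 266 CPM (250 to 282), whose intervals do not overlap. Kupffer cells followed at 34.6 CPM, and the background cells had 3.80 CPM (1.04 to 9.73). A Cp UMI was seen in 43.8% of hepatocytes, 61.2% of mesothelial cells and 1.24% of background cells. Mesothelial cells are deeper, with a median of 7262 UMIs, and at 2000 UMIs per cell the first 2 shares were 32.5% and 36.0%. Mesothelial cells had 4.07 Cp UMIs per Alb UMI (3.55 to 4.69) and hepatocytes 0.0523. Per cell, the median Cp level was 0 CPM in hepatocytes and 147 CPM in mesothelial cells. Against the sum of all other cells, hepatocytes were 6.51-fold (5.99 to 7.08) higher in Cp. The log2 ratio was 2.34, and 1.81 without the tenth of hepatocytes highest in Clu, where the order against mesothelial cells was not tested.

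The genes lower in hepatocytes were those of the macrophage route. Slc11a1 was 51.8-fold lower, Hmox1 36.4-fold and Slc40a1 27.9-fold, with levels of 3.50, 21.7 and 27.6 CPM in hepatocytes. Tfrc was at 6.64 CPM (4.00 to 10.4) in hepatocytes and 6.65 CPM in T or NK cells and neutrophils. It was 4.35-fold (2.76 to 7.28) lower than in the other cells, but with the 20 CPM offset its log2 ratio of -0.88 was not past 2-fold. That ratio was past 2-fold in 4 of 13 alternative settings and moved farthest, to -1.54, when 5 rather than 20 CPM was added. Ftl1 (1.26-fold lower) and Fth1 (1.02-fold) were not called.

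Of 66 other iron and haem genes listed, 64 were found and 59 tested in hepatocytes. Of these 9 were higher and 10 lower, beside 8.49% higher and 11.6% lower of all genes tested. Haem synthesis had 5 of 9 genes higher and none lower: the first enzyme Alas1 was 7.99-fold (7.50 to 8.52) and the second, Alad, 6.00-fold higher. Haem scavenging and breakdown had 1 of 12 higher, Hp (haptoglobin, the plasma haemoglobin binder, 4.95-fold), and 6 lower, with the haemoglobin-haptoglobin receptor Cd163 44.7-fold and the haemopexin receptor Lrp1 18.7-fold lower. Ltf (lactoferrin of neutrophil granules) was 54.7-fold lower. Hp was not particular to hepatocytes: it was at 1436 CPM (1392 to 1481) there and at 2811 CPM (2700 to 2925) in neutrophils.

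Hepatocytes were next ordered by lobule zone, as the share of zonation marker UMIs that were pericentral, that is, from genes known to be high around the central vein. Of 624 hepatocytes, 623 had such UMIs. They were divided at the median share of 66.7%, with 176 cells within 25% of it, so the sides are ranges and not cell types. Hamp was higher on the pericentral side, at 2.64-fold (2.52 to 2.77), and was the 1 gene past 2-fold of the 8 with enough UMIs to test, beside 2.02% of 6981 genes (1.36% higher, 0.659% lower). Over 4 bins from most periportal to most pericentral it stood at 1037 CPM (960 to 1119), 2404 CPM (2289 to 2523), 3807 CPM (3673 to 3944) and 5599 CPM (5429 to 5773). The share of thinned cells with a Hamp UMI went from 63.1% through 78.0% and 84.9% to 89.0%. Each bin was above the one before with no overlap of these counting intervals, which leave out the spread between cells.

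The plasma carriers differed in direction across the zones. Hpx went the opposite way to Hamp, with 1866, 1326, 1245 and 984 CPM, and was 1.43-fold (1.34 to 1.52) lower on the pericentral side. Trf was 1.35-fold and Cp 1.84-fold (1.61 to 2.11) higher on that side, with the iron store Fth1 at 1.40-fold and Ftl1 at 1.19-fold, all short of 2-fold. The median log2 ratio was 0.45 over the 8 genes and -0.00 over all genes tested. Clu also lay along this axis, at 681, 674, 1623 and 5235 CPM. Without the tenth of hepatocytes highest in Clu, the log2 ratio of Hamp was still past 2-fold, while that of Cp moved from 0.83 to 0.20 and that of Trf from 0.43 to -0.02. Id1, a target of the BMP signal that drives hepcidin, was at 73.8, 115, 125 and 248 CPM over the same bins and was 1.90-fold (1.53 to 2.36) higher on the pericentral side. None of the 40 listed pathway genes tested was past 2-fold there.

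The 250 bases before the start of Hamp (RefSeq, GRCm38.p6, chr7:30944030-30944279, minus strand) are printed because hepcidin is known to be switched on through BMP signals and through interleukin-6. Whether either route acts on Hamp in these hepatocytes was not tested. Capitals mark GGCGCC, a letter pattern of BMP response elements, 109 bases before the start, and TTCTTGGAA, which fits the STAT pattern TTCNNNGAA, 97 bases before it.
Hamp, 250 bases before the start: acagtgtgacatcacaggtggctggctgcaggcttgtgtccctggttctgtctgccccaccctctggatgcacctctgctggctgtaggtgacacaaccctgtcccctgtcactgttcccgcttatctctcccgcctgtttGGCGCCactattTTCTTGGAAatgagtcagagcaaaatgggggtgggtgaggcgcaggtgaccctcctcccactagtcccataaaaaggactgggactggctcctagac
On both strands, 9.59% of 32851 promoters of this length held GGCGCC and 7.02% held TTCNNNGAA, so both letter patterns are common, and the match does not show that a factor binds. Promoters were listed for 7 of the 10 genes.

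Hepatocytes were also ordered by the share of their UMIs from acute-phase genes such as Saa1 and Orm1, which the liver makes in inflammation, and divided at the median of 0.217%. Hpx was the 1 gene past 2-fold of 8 tested, beside 1.8% of 6984 genes (1.29% higher, 0.515% lower), at 2.22-fold (2.08 to 2.38) higher on the acute-phase side. Over 4 bins of 156 cells it stood at 639, 1090, 1413 and 2423 CPM from low to high. Hamp did not rank with it, at 3618, 3888, 3066 and 2503 CPM, and was 1.34-fold (1.29 to 1.40) lower on the acute-phase side. Fth1 was 1.43-fold lower, Cp 1.24-fold higher and Trf 1.06-fold lower. The median log2 ratio of the 8 genes was -0.09, against -0.06 over all genes.

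Zone and the share of hepatocyte markers moved with this ordering. The pericentral gene Cyp2e1 was at 1097 CPM in the lowest bin and 216 CPM in the highest. The periportal gene Cyp2f2 was at 7.50 and 392 CPM. The median share of hepatocyte marker UMIs was 2.68%, 3.86%, 5.08% and 8.52% over the bins, and Alb was at 6076, 5568, 5881 and 10450 CPM. Acute-phase share, zone and hepatocyte marker share therefore cannot be told apart here for Hamp or Hpx. Id1 was 2.65-fold (2.10 to 3.37) lower on the acute-phase side, the 1 of 40 pathway genes called, and Hp was 1.81-fold higher without passing 2-fold. Cp passed 2-fold, with a log2 ratio of 1.29 instead of 0.30, when the tenth of hepatocytes highest in Clu was left out.

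**Figure D2:**
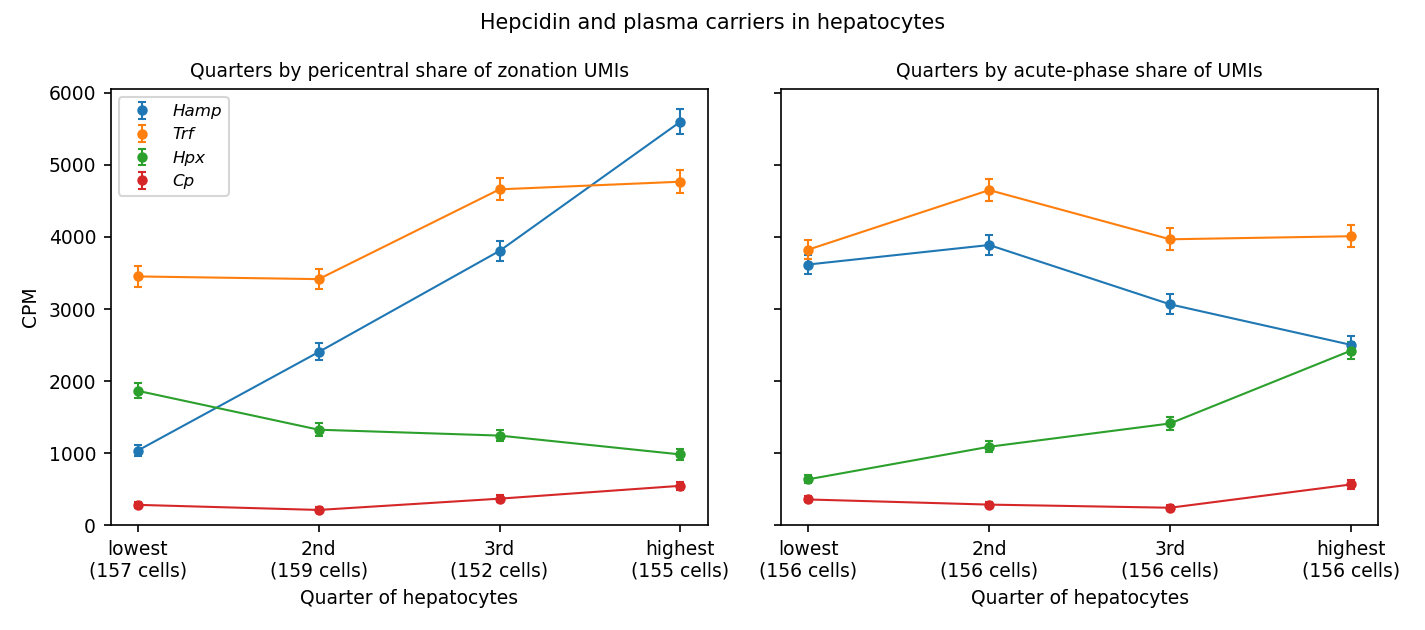
Level in CPM (vertical axis) of Hamp, Trf, Hpx and Cp in hepatocytes divided into 4 bins (horizontal axis, number of cells in brackets) by pericentral share of zonation UMIs (left) and by acute-phase share of UMIs (right); points are summed levels and bars exact Poisson 95% intervals. Hamp goes from 1037 to 5599 CPM toward the pericentral end while Hpx goes from 1866 to 984, and toward the acute-phase end Hpx goes from 639 to 2423.

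Macrophages, 1902 cells in 5 classes, were compared with all other cells. Of the 10 genes 8 were called, 4 higher and 4 lower, beside 12% of 13517 genes (4.88% higher, 7.11% lower). The median log2 ratio was 0.21 over the 10 and -0.11 over all genes. Slc40a1 was 53.2-fold (48.0 to 59.1), Hmox1 36.1-fold (33.2 to 39.4), Slc11a1 25.1-fold (21.7 to 29.3) and Ftl1 5.90-fold (5.80 to 5.99) higher. Hamp was 17.3-fold, Cp 9.78-fold, Hpx 4.62-fold and Trf 2.07-fold lower. The Trf call was near the threshold, with a log2 ratio of -1.02, and was past 2-fold in 9 of 13 alternative settings. Its log2 ratio moved farthest, to -0.67, without the tenth of hepatocytes highest in Clu. Fth1, 1.98-fold (1.96 to 2.00) higher, lay just short of the threshold and passed it under some settings, with log2 ratios from 0.76 to 1.29.

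Slc40a1 encodes ferroportin, the iron exporter (ENSMUSG00000025993, chr1:45908068-45926523, minus strand). It was at 3424 CPM (3352 to 3498) in Kupffer cells, the resident macrophages of the liver sinusoids. The other macrophage classes had 1111 CPM (1042 to 1183; other macrophages, past no subset gate), 945 CPM (919 to 971; Gpnmb Spp1), 902 CPM (863 to 942; Mmp12) and 752 CPM (686 to 822; Cx3cr1 MHC class II). The intervals of the Gpnmb Spp1 and Mmp12 classes overlap, and Kupffer cells stand clear of every other class. Monocytes, the blood-borne relatives, were at 11.6 CPM (7.27 to 17.6), beside 16.2 CPM in mesothelial cells, 27.6 CPM in hepatocytes and 104 CPM in neutrophils. A Slc40a1 UMI was seen in 100% of Kupffer cells, 73.5% of Gpnmb Spp1 and 57.1% of Cx3cr1 MHC class II macrophages, and in 29.0% of T or NK cells and neutrophils. At 2000 UMIs per cell these shares were 99.5%, 59.2%, 46.6% and 18.7%.

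Hmox1 encodes haem oxygenase 1, which opens the haem ring and frees its iron (ENSMUSG00000005413, chr8:75093621-75100589, plus strand). Its order differed from that of ferroportin: 1692 CPM (1658 to 1726) in Gpnmb Spp1, 1439 CPM (1390 to 1490) in Mmp12, 1268 CPM (1224 to 1313) in Kupffer, 1261 CPM (1188 to 1338) in other and 842 CPM (772 to 916) in Cx3cr1 MHC class II macrophages. The intervals of the Kupffer and other classes overlap and the remaining neighbours do not. Monocytes had 109 CPM (94.3 to 124), neutrophils 84.7 CPM (66.4 to 107) and mesothelial cells 33.1 CPM. After thinning, a Hmox1 UMI was seen in a smaller share of the Gpnmb Spp1 class, 56.8%, than of Kupffer cells, 67.9%. At full depth these shares were 80.4% and 81.2%, at median depths of 6528 and 4059 UMIs per cell. Per cell the median was 382 CPM in the Gpnmb Spp1 class and 684 CPM in Kupffer cells, and the 90th percentile was 5519 and 3313 CPM.

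Cells with UMIs of both the haem-splitting and the iron-exporting gene made up a larger share of the Kupffer class than of the 3 other macrophage classes compared. After thinning, 67.7% of Kupffer cells had UMIs of both Hmox1 and Slc40a1, against 37.7% of Mmp12, 34.6% of Gpnmb Spp1 and 17.4% of Cx3cr1 MHC class II macrophages. Since nearly every Kupffer cell had a Slc40a1 UMI, this share is close to that of Hmox1 alone. Hmox1 without Slc40a1 was seen in 0.171% of Kupffer cells and in 22.3% of the Gpnmb Spp1 class. Neither was seen in 35.4% of Cx3cr1 MHC class II macrophages, and a cell without a UMI at this depth need not lack the RNA.

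Slc11a1 encodes NRAMP1, which pumps metal out of the phagosome (ENSMUSG00000026177, chr1:74375195-74386062, plus strand). It was at 470 CPM (443 to 498) in Kupffer cells, 339 CPM in other, 298 CPM (284 to 313) in Gpnmb Spp1, 291 CPM in Mmp12 and 263 CPM (224 to 306) in Cx3cr1 MHC class II macrophages. Monocytes had 52.7 CPM (42.9 to 64.1) and neutrophils 43.0 CPM (30.2 to 59.2), above the 3.50 CPM of hepatocytes and the 1.80 CPM of mesothelial cells. It was the most even of the 3 macrophage genes across the macrophage classes.

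**Figure D3:**
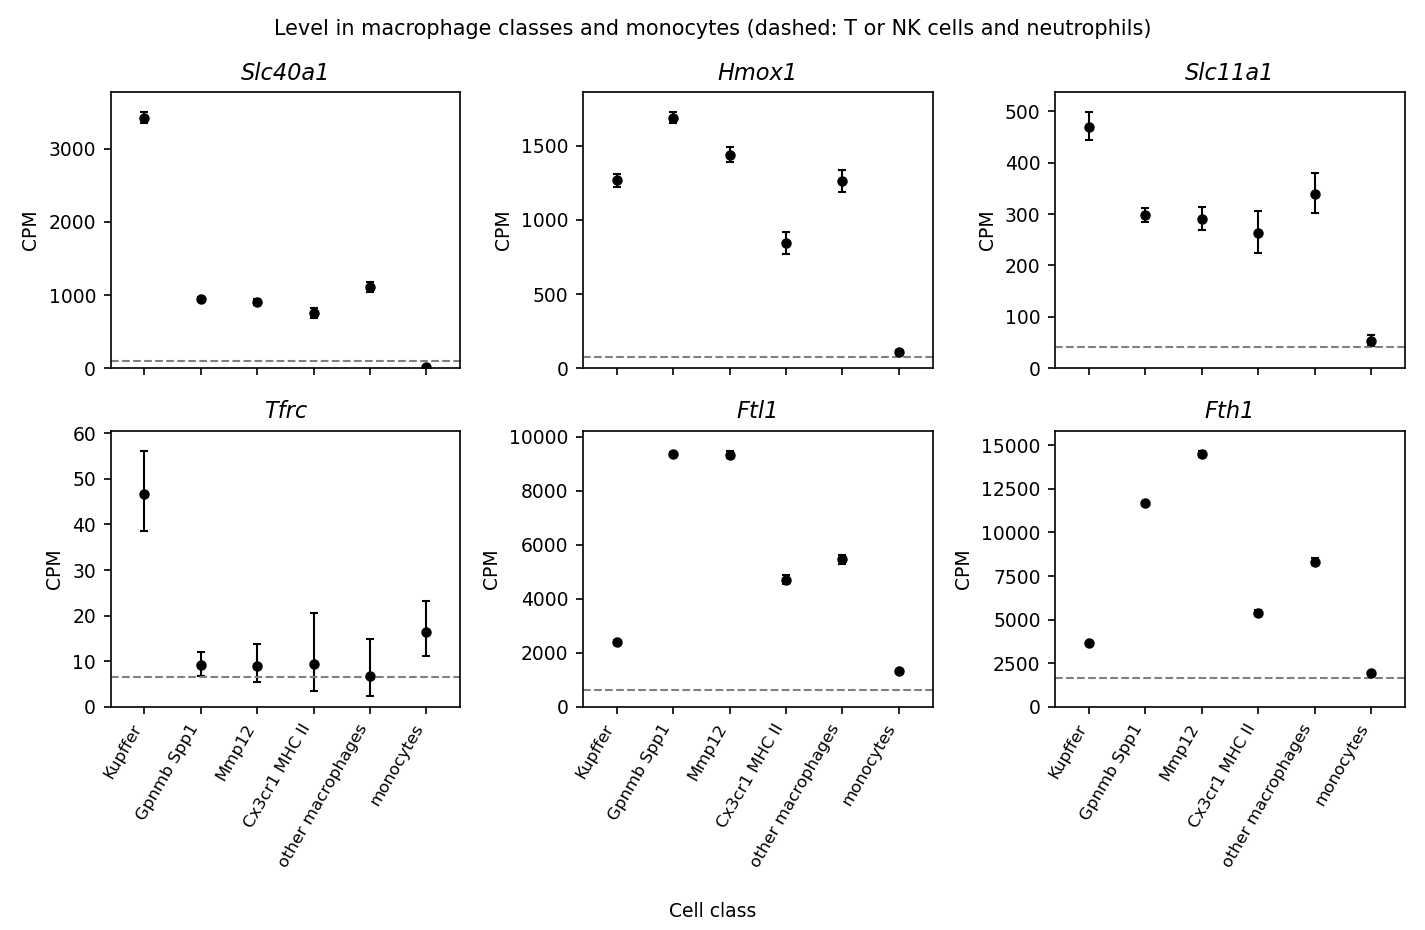
Level in CPM (vertical axis, from 0, own scale for each gene) of 6 genes in the 5 macrophage classes and in monocytes (horizontal axis); points are summed levels, bars exact Poisson 95% intervals, and the dashed line is the level in T or NK cells and neutrophils. Slc40a1 and Tfrc stand highest in Kupffer cells, at 3424 and 46.7 CPM, while Ftl1 and Fth1 are lowest there among the macrophage classes.

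Kupffer cells were set against Gpnmb Spp1 macrophages, a class with the markers of lipid-associated macrophages. Of the 10 genes 4 were called, 2 higher and 2 lower, beside 7.39% of 9980 genes (5.12% higher, 2.27% lower), with a median log2 ratio of 0.58 against 0.10 for all genes. Slc40a1 was 3.62-fold (3.50 to 3.75) and Tfrc 5.12-fold (3.65 to 7.26) higher in Kupffer cells. The ferritin chains were lower, Ftl1 by 3.89-fold and Fth1 by 3.20-fold. Hmox1 was 1.33-fold (1.28 to 1.39) lower and Slc11a1 1.58-fold (1.46 to 1.70) higher, both short of 2-fold. The Kupffer side thus had more RNA of Slc40a1 and Tfrc and less of both ferritin chains. The Tfrc value rests on 116 UMIs in Kupffer cells and 51 in the Gpnmb Spp1 class. Of 13 other listed genes of iron transport and storage that were tested, 0 were called higher and 0 lower.

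Set against Cx3cr1 MHC class II macrophages, Kupffer cells had 2 of the 10 genes past 2-fold, both higher, beside 6.75% of 8182 genes (4.86% higher, 1.88% lower), with a median log2 ratio of 0.27 against 0.15 for all genes. These were Slc40a1, 4.55-fold (4.15 to 5.00), and Tfrc, 4.95-fold (2.21 to 13.8), the latter against 6 UMIs in the Cx3cr1 class. Slc11a1 was 1.79-fold and Hmox1 1.51-fold higher, and Fth1 was 1.47-fold lower. Ftl1 was 1.95-fold lower and passed 2-fold under the stricter gates, with a log2 ratio of -1.30 in place of -0.96. Hmox1 passed it under the looser gates, at 1.37 in place of 0.58.

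Among the listed pathway genes, Cd163 separated Kupffer cells from both other classes, 204-fold (142 to 302) above Gpnmb Spp1 and 63.2-fold (35.3 to 127) above Cx3cr1 MHC class II macrophages. Against the Gpnmb Spp1 class 5 of 48 genes were higher and none lower, beside 5.12% higher and 2.27% lower of all genes tested. These were Cd163, the BMP signal inhibitor Smad7 (6.26-fold), the haemochromatosis gene Hfe (3.18-fold), Spic (2.99-fold), the factor of haem-recycling macrophages, and the BMP signal carrier Smad1 (2.81-fold). Against the Cx3cr1 class 4 of 44 were higher and none lower, beside 4.86% higher and 1.88% lower of all genes tested. They were Cd163, the ferritin degradation receptor Ncoa4 (6.95-fold), Smad7 (4.40-fold) and the iron sensor Aco1 (2.65-fold). Over all macrophages 9 of 59 genes were higher and 15 lower, beside 4.88% higher and 7.11% lower of all genes tested. Haem scavenging and breakdown had 7 of 12 higher, with Cd163 76.1-fold (56.4 to 105) and Lrp1 9.0-fold, while haem synthesis had 5 of 9 lower. Neutrophil genes led the lower side, Ltf at 99.2-fold and Lcn2 at 43.1-fold.

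Tfrc encodes transferrin receptor 1 (ENSMUSG00000022797, chr16:32608920-32632794, plus strand), which brings transferrin iron into the cell. It was at 432 CPM (382 to 488) in erythroid precursors, 78.6 CPM (63.6 to 96.0) in granulocyte-monocyte progenitors, 59.3 CPM (28.5 to 109) in dendritic cells and 46.7 CPM (38.6 to 56.0) in Kupffer cells. Precursors stand clear of the rest, and the next 3 overlap their neighbours. The remaining macrophage classes had 6.84 to 9.44 CPM, within the interval of T or NK cells and neutrophils at 6.65 CPM (2.68 to 13.7). A Tfrc UMI was seen in 78.0% of precursors, 15.9% of Kupffer cells and 2.90% of T or NK cells and neutrophils, and in 58.2% and 7.86% of the first pair after thinning.

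The 91 erythroid precursors, gated on markers other than globin, came from cells treated with red cell lysis buffer, and 44 globin-rich cells without precursor markers were also present. Of the 10 genes 9 were called against all other cells, 1 higher and 8 lower, beside 17.8% of 13517 genes (5.52% higher, 12.3% lower), and the median log2 ratio was -2.48 against -0.12 for all genes. Tfrc was 26.1-fold (22.3 to 30.6) higher. Hmox1 was 62.6-fold, Slc11a1 20.1-fold, Trf 18.7-fold, Hpx 13-fold, Slc40a1 11.9-fold, Hamp 5.93-fold and Ftl1 5.21-fold lower. Cp was 18.5-fold lower on 3 UMIs. Fth1 was 1.66-fold lower and not called. The other side of this comparison holds the hepatocytes and macrophages in which these genes stood highest.

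Globin made up a large and varying share of the UMIs of precursors, so they were also compared by CPM with globin UMIs left out of the total, here called non-globin CPM. In those with under 5%, 5 to 50% and at least 50% globin (33, 31 and 27 cells), Tfrc was at 327 (273 to 389), 969 (784 to 1185) and 1512 (1070 to 2075). Globin-rich cells without precursor markers had 17.5 (0.442 to 97.3), on the level of all other classes at 16.6. Depth moved with these steps, with median UMIs per cell of 11138, 3683 and 2818. Fth1 stood at 4002 (3807 to 4203), 9302 (8708 to 9926) and 7320 (6300 to 8457), and Ftl1 at 750, 1428 and 1870.

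Haem synthesis genes took different courses over these steps. Alas2 stood at 57.9, 2275 and 11219 non-globin CPM over the same steps, and Fech, which puts the iron into haem, at 279, 1765 and 5331, both highest in the last step as Tfrc was. Urod (287, 918 and 2466) and Ppox (88.1, 479 and 676) were also highest there. Cpox (773, 2815 and 1830), Alad (571, 1856 and 1353) and Uros (146, 683 and 438) were highest in the middle step. For Tfrc, Ppox, Alad and Uros the intervals of the middle and last steps overlap, so their counts do not order those steps. Alas1, the form of the first enzyme used outside the red lineage, stood at 40.3 (23.0 to 65.4) in the first step and had no UMI in the others, whose intervals reach 37.6 and 147. The mitochondrial iron importer Slc25a37 stood at 683 and 1830 in the last pair of steps. The endosomal iron reductase Steap3 stood at 166 and 51.0 in the first pair of steps and the endosomal iron transporter Slc11a2 at 85.6 and 71.4. Neither had a UMI in the last step, where their intervals reach 147, above the middle values of both. Of the genes in these sentences, all but Alas2 and Cpox were chosen after their values were seen. Against all other cells 8 of 9 haem synthesis genes were higher and 1 lower, led by Alas2 at 49.7-fold (43.7 to 56.6) and Cpox at 22.2-fold. Over the whole list of 59 genes 15 were higher and 19 lower, beside 5.52% higher and 12.3% lower of all genes tested. The haemopexin receptor Lrp1 was among the lower genes, at 33.2-fold.

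**Figure D4:**
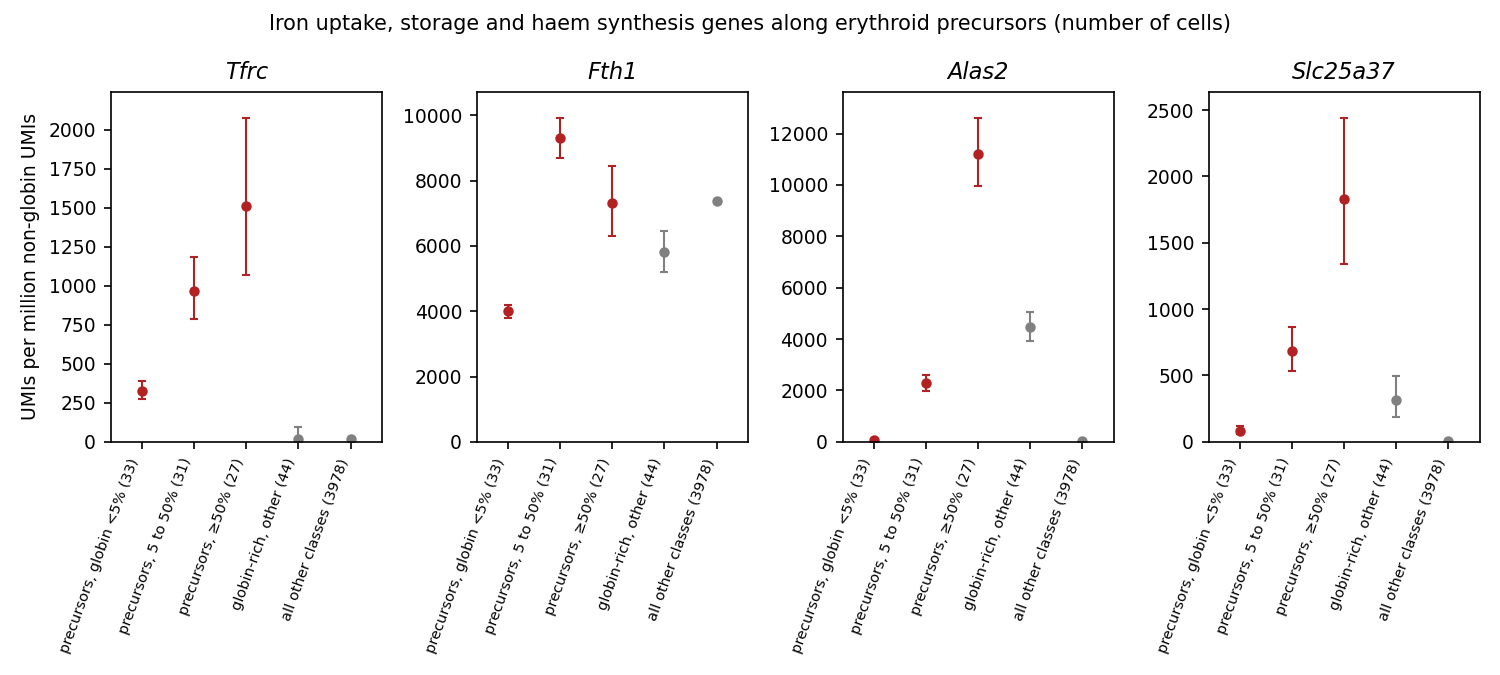
Non-globin CPM (vertical axis, from 0, own scale for each gene) of Tfrc, Fth1, Alas2 and Slc25a37 in erythroid precursors by globin share (red), in globin-rich cells without precursor markers and in all other classes (grey), with the number of cells in brackets; bars are exact Poisson 95% intervals. Tfrc goes from 327 to 1512 and Alas2 from 57.9 to 11219 with globin share, while Fth1 is highest in the middle step at 9302.

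The storage genes were found in every class. Ftl1, the ferritin light chain (ENSMUSG00000050708, chr7:45457944-45459884, minus strand), was at 9377 CPM (9297 to 9458) in Gpnmb Spp1 and 9337 CPM (9211 to 9465) in Mmp12 macrophages, whose intervals overlap, and the looser gates put Mmp12 first. Other macrophages had 5465 CPM, the Cx3cr1 MHC class II class 4705 CPM, hepatocytes 3299 CPM (3233 to 3367) and Kupffer cells 2409 CPM (2348 to 2470). Mesothelial cells had 466 CPM (444 to 488), below the 632 CPM of T or NK cells and neutrophils. Pseudogenes and relatives of Ftl1 had 1859 UMIs, or 1.65% of its 112957, and reads split between copies cannot be told apart.

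Fth1, the ferritin heavy chain with the ferroxidase activity (ENSMUSG00000024661, chr19:9980598-9985098, plus strand), was at 14485 CPM (14328 to 14644) in Mmp12 and 11657 CPM (11568 to 11747) in Gpnmb Spp1 macrophages. Mesothelial cells came next at 9464 CPM (9367 to 9561), above other macrophages at 8316 CPM and hepatocytes at 7425 CPM (7325 to 7525). Cx3cr1 MHC class II macrophages had 5373 CPM, erythroid precursors 4415 CPM and Kupffer cells 3644 CPM (3569 to 3720). T or NK cells and neutrophils had 1649 CPM. Both chains together made up 2.38% of all UMIs in Mmp12 macrophages, 2.10% in Gpnmb Spp1 macrophages, 1.07% in hepatocytes, 0.993% in mesothelial cells and 0.605% in Kupffer cells.

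The balance of the chains also differed between classes. Since the 2 genes differ in length and capture, the ratio is read only between classes. Mesothelial cells had 20.3 Fth1 UMIs per Ftl1 UMI (19.4 to 21.3), and 20.03 with the relatives of Ftl1 counted in. Erythroid precursors had 5.54 (5.03 to 6.11) and hepatocytes 2.25 (2.20 to 2.31). Macrophages lay lower and closer together, with 1.55 (1.52 to 1.58) in the Mmp12, 1.51 (1.46 to 1.56) in the Kupffer, 1.24 (1.23 to 1.26) in the Gpnmb Spp1 and 1.14 (1.09 to 1.20) in the Cx3cr1 MHC class II class. The Mmp12 and Kupffer intervals overlap although their ferritin totals are far apart. Plasma cells had the lowest ratio named here, 0.904 (0.824 to 0.992).

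**Figure D5:**
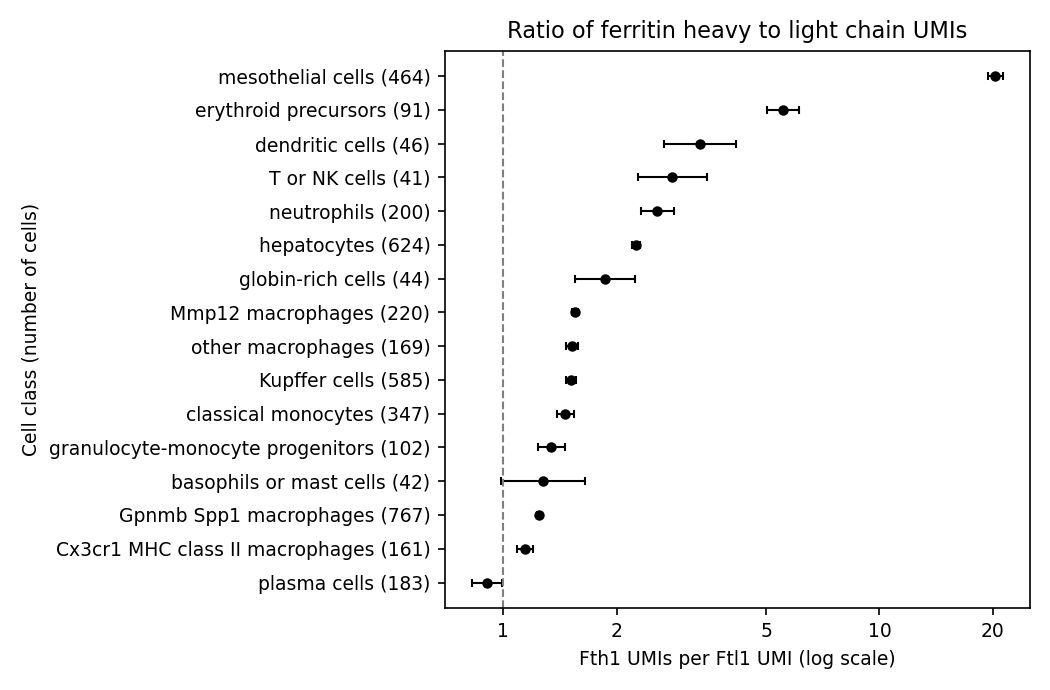
Number of Fth1 UMIs per Ftl1 UMI (horizontal axis, log scale) in each class of at least 20 cells (vertical axis, number of cells in brackets), with exact 95% intervals; the dashed line marks a ratio of 1. Mesothelial cells stand apart at 20.3, erythroid precursors are at 5.54, hepatocytes at 2.25, and the named macrophage classes lie between 1.14 and 1.55.

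For each of the 10 genes the genes with the most similar pattern were found by Pearson's r over the 16 classes with at least 20 cells, among 10403 genes, as a description of classes that share 1 library. Hamp ranked with Glyat (r = 0.983), Acox2 and Rbp4, genes of hepatocyte metabolism and transport. Hpx ranked with Serpina3k (0.985) and the fibrinogen gene Fgg (0.981), and Cp with the keratin Krt8 (0.965), a gene hepatocytes and mesothelial cells share. Slc40a1 ranked with Mmp27 (0.968) and Spic (0.960). Hmox1 ranked with Slc11a1 (0.977) and Msr1 (0.974), and Slc11a1 with Msr1 (0.984), a scavenger receptor. Ftl1 ranked with its pseudogene Ftl1-ps1 (0.974) and with Apoe (0.936), Fth1 with Gabarapl1 (0.882), Trf with Sqstm1 (0.925) and Tfrc with E2f4 (0.917).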

How the data were processed

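The deposited values of the matrix labelled CluKO are counts: whole-number UMI counts per gene and cell, per the file headers, from a GEXSCOPE kit per the labels' protocols, and their genome build, per the submitters' processing notes, is GRCm38. Aligner, counter and cell calling: not given in the sources used here. Gene symbols were taken from the deposited gene table, whose 53713 lines match the matrix. Samples were grouped by label. The 6 samples of the CluKO matrix share 1 barcode list and count as 1 sample, and 0 other per-sample columns were left unused. The 10 genes, the pathway and marker lists and the comparisons were chosen with earlier results of these data known, and the gate thresholds were set after seeing the data (1% of UMIs from hepatocyte markers, 0.5% from macrophage, 1% from Kupffer, 1% from Gpnmb Spp1, 0.3% from Mmp12, 0.5% from Cx3cr1 MHC class II and 0.5% from erythroid markers). Within 1.25 times of a threshold lay 68 cells for hepatocytes, 75 for Kupffer, 169 for Gpnmb Spp1 and 166 for Cx3cr1 MHC class II macrophages. No doublet caller was run, and cells past more than 1 gate were left out. UMIs were summed per class and given as CPM with exact Poisson intervals, shares with Clopper-Pearson intervals and ratios with conditional binomial intervals, all at 95%. Ratios used an offset of 20 CPM, a minimum of 30 UMIs and a limit of 2-fold. All 10 genes are named, with at most 6 listed pathway genes per comparison, those of largest log2 ratio. The values of 1 listed pathway gene are not reported here. Cells were thinned to 2000 UMIs where said. On simulated counts the scripts were tested and found 199 of 200 changed genes. Those counts held counting error only and planted changes larger than the 2-fold limit, so this checks the code and not the spread between cells. Python 3.11.15, numpy 2.4.6, scipy 1.17.1, pandas 2.3.3 and matplotlib 3.10.9 were used. Of the 13 alternative settings, 2 (globin UMIs left out of totals, and hepatocytes highest in Clu left out) were chosen after seeing the data.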

Additional observations from a re-analysis of the deposited data

How the results depend on the processing

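Under 11 planned and 2 added settings, no log2 ratio of the 10 genes that was past 2-fold changed direction. The number of genes past 2-fold ranged from 7 to 8 for hepatocytes, 7 to 9 for macrophages, 4 to 5 for Kupffer against Gpnmb Spp1 macrophages, 2 to 3 for Kupffer against Cx3cr1 MHC class II macrophages and 9 to 10 for erythroid cells, and stayed at 1 for pericentral against periportal hepatocytes. In hepatocytes high against low in acute-phase UMIs it was 2 instead of 1 without the tenth of hepatocytes highest in Clu, Cp joining Hpx. The log2 ratio of Hamp ranged from 1.30 to 1.61 between zones, that of Hpx from 1.00 to 1.45 between the acute-phase sides, and that of Slc40a1 from 1.73 to 1.96 between Kupffer and Gpnmb Spp1 macrophages. No setting that leaves out a replicate could be run, since the matrix is 1 sample. No paired analysis was possible because the 6 samples cannot be told apart in the matrix. Clusters made without the 10 genes and the pathway genes gave no value for the Cx3cr1 MHC class II class. Depth limits Tfrc and Slc11a1, which had under 30 UMIs in the hepatocyte zone and acute-phase comparisons.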

Other observations

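Macrophages were also divided by their share of globin UMIs, with levels in CPM with globin left out of the total. In Kupffer cells with under 0.5%, 0.5 to 1% and 1 to 5% globin (269, 294 and 22 cells), Hmox1 stood at 1090 (1032 to 1151), 1409 and 2029 (1729 to 2365), and 21 cells with at least 5%, which the classes leave out, had 756 (570 to 984). In Gpnmb Spp1 macrophages over the same steps (529, 221, 17 and 25 cells) Hmox1 stood at 1622, 1907, 2043 and 2792 (2543 to 3059). Slc40a1 stood at 3279, 3593, 3671 and 2819 in Kupffer cells and at 896, 1127, 797 and 1472 in Gpnmb Spp1 macrophages. In the last step Hmox1 was thus lowest in Kupffer cells and highest in Gpnmb Spp1 macrophages, a difference that was not tested. The summed level of the erythroid marker Car2 also went up over these steps, on few UMIs. It stood at 2.51, 7.55, 24.9 and 41.3 in Kupffer cells, on 3, 9, 2 and 3 UMIs. In Gpnmb Spp1 macrophages it stood at 3.90, 10.5, 16.6 and 36.3, on 16, 14, 2 and 6 UMIs. Intervals of neighbouring steps overlap in both classes, while those of the first and last steps do not. The part of erythroid cells or their RNA in these steps was not tested.

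Kupffer cells with cycling markers past 0.2% of UMIs had less Slc40a1 (2520 against 3528 CPM) and less Hmox1 (817 against 1320 CPM) than the other Kupffer cells, and 50.6 against 46.3 CPM of Tfrc. In Cx3cr1 MHC class II macrophages Hmox1 was at 1880 CPM in 17 cycling cells and 630 CPM in the 144 others. Over that whole class the median cell had 0 CPM of Hmox1 and the 90th percentile was 1606 CPM, so a sum over 17 cells can rest on few of them. These differences by cycling markers were not tested.

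Along hepatocytes ordered by their share of Alb UMIs, in 4 bins from low to high, Hpx stood at 405, 795, 1348 and 2634 CPM, Trf at 1671, 2990, 4133 and 7303 CPM, Hamp at 2574, 2477, 3864 and 4222 CPM and Cp at 42.4, 85.1, 314 and 931 CPM, while Fth1 went from 8911 to 5540 CPM.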
